A study of Mus musculus with 28 samples.

Results

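Transfer RNAs (tRNAs) carry amino acids to the ribosome, and each is named for its amino acid and for the 3-base anticodon with which it reads the messenger RNA. In stressed cells nucleases such as angiogenin cut mature tRNAs, and the resulting fragments are found in blood, where fragments of tRNA-Gly, tRNA-Glu and tRNA-Asp are often among the most frequent. Some fragments circulate in extracellular vesicles (EVs), small membrane-bound particles that cells release, and others circulate outside them, in protein complexes. The data described here are the counts of tRNA-Gly, tRNA-Glu and tRNA-Asp in EVs and in plasma of mice of 5 ages. All rows of the deposited tables whose names begin with these amino acids were taken, which gave 62 of 408 tRNA rows and of 80668 RNAs in all. Of these rows 27 are tRNA-Gly, 19 are tRNA-Glu and 16 are tRNA-Asp.

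The animals were 14 female wild-type mice of the inbred strain C57BL/6N, anaesthetised with ketamine and xylazine before blood was drawn, and the labels name no other treatment. They were 2 months (3 mice), 6 months (4 mice), 8 months (3 mice), 12 months (2 mice) or 18 months old (2 mice). Blood of each animal was handled separately, platelets, larger vesicles and debris were spun out, and ultracentrifugation divided the plasma into a pellet enriched in EVs and an EV-depleted supernatant, for which the word plasma is used below, so that each mouse gave 1 small RNA library per fraction and 28 libraries were made. The pellet is enriched in EVs and not purified, both fractions hold RNA of many tissues, and the number of vesicles and the amount of RNA in each cannot be told apart. Plasma libraries of replicates 2 and 3 at 2 months carry a shared code in the labels, so only the replicate number ties them to an EV library. The labels do not say what the shared code means, and these libraries were counted here as 2 separate mice.

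The 62 rows have 7 anticodons: GCC (13 rows), TCC (7), CCC (6) and ACC (1) for glycine, CTC (11) and TTC (8) for glutamate, and GTC (16) for aspartate. A row stands for 1 tRNA gene, and the genes of an anticodon fall into sequence groups, the fourth field of the name, whose genes carry the same mature tRNA. In the count table every row of a group held the same count in every library, so the 62 rows hold 20 distinct count profiles, 1 per group. A read thus appears to have been counted in full for each identical copy, a rule not given in the sources used here. A sum over the rows of an anticodon then weights its reads by the number of gene copies. Values below are such sums unless copies are said to be counted once. Each of the 62 rows had a count in every library, so no filter on low values removed a member.

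In RefSeq (assembly GRCm38.p6) these 7 anticodons have 64 genes of 71 to 74 bases, so that counts of different anticodons need no correction for length. Chromosome 1 holds 20 of them, 18 in a cluster at 171037029 to 171103114 with 5 Asp-GTC, 5 Gly-TCC, 4 Glu-CTC and 4 Gly-GCC genes. Of the 64 genes, 46 lie between genes of the GENCODE M21 annotation, 15 in introns, and 3 overlap an exon. One of the 3 is a Gly-TCC gene at chromosome 1, 171064699 to 171064770, which overlaps an untranslated region of Fcgr3, a receptor for immunoglobulin G. Gly-ACC has a single gene, at chromosome 11, 48823728 to 48823801, between genes. As identical copies share their counts, no fragment could be assigned to 1 of these places, and which bases of a tRNA the reads cover was not analysed here.

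Library totals ranged from 928651 to about 23905700 counts in plasma and from about 4764340 to 52753800 in EVs. tRNA took 43.8 to 78.8% of all counts in plasma and 11.3 to 51.4% in EVs, and was lower in the EV library of all 14 mice. With identical tRNA copies counted once, it took 18.9 to 53.9% in plasma and 3.71 to 24.1% in EVs, again lower in EVs in all 14. Ribosomal RNA (rRNA) took 4.25 to 17.4% in plasma and 20.7 to 61.4% in EVs, and the 2 ranges did not overlap. The microRNA markers of red cells, 7 of 7 of them counted, summed to 777 to 3455 RPM (the depth-scaled signal of the deposited table) in plasma and 570 to 4669 RPM in EVs. Markers of platelets and white cells (6 of 6 counted) summed to 271 to 1074 and 334 to 1701 RPM, those of liver (3 of 3) to 14.6 to 177 and 19.2 to 243 RPM, and those of skeletal muscle (3 of 3) to 0.757 to 8.01 and 0.489 to 8.08 RPM. In 7 of 14 mice the red cell markers were higher in the EV library, as were the platelet and white cell markers, and in 10 the liver markers.

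**Figure D1:**
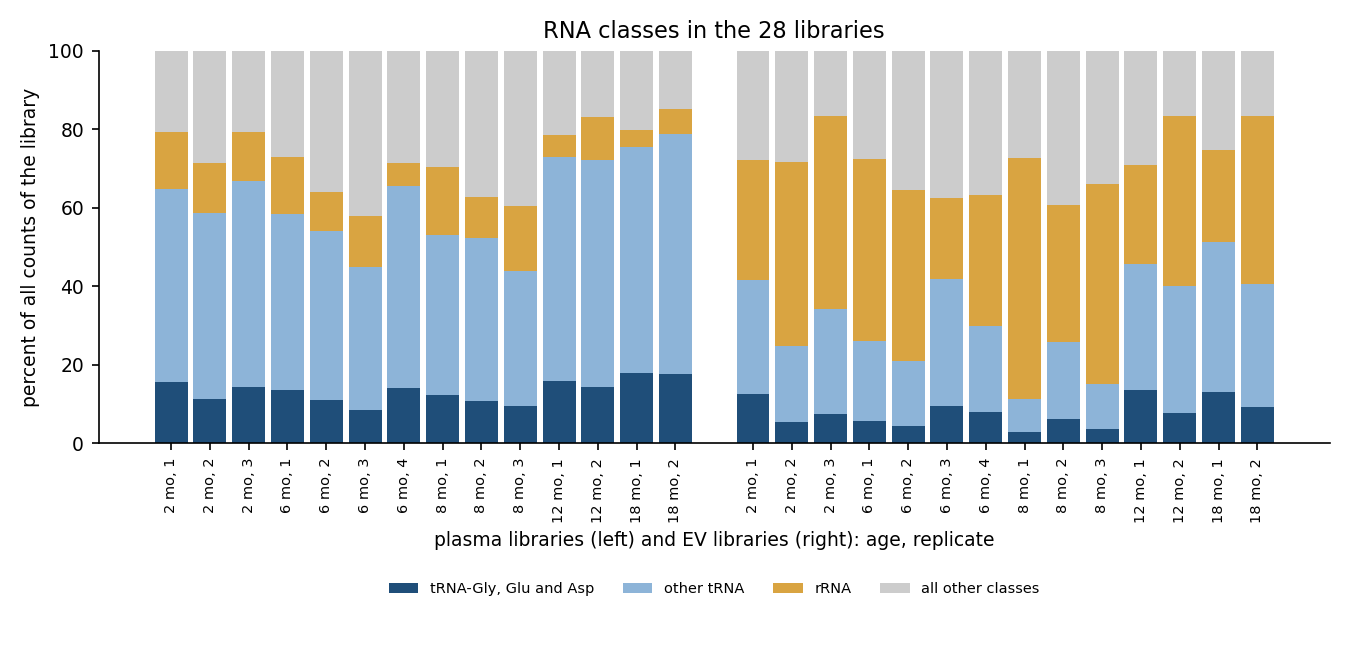
Percent of all counts of a library (y axis) taken by tRNA-Gly, Glu and Asp, by other tRNA, by rRNA and by all other RNA classes, for the 14 plasma libraries on the left and the 14 EV libraries on the right. Identical gene copies are summed, each with its full count. tRNA-Gly, Glu and Asp together take 8.56 to 17.9% of all counts in plasma and 2.87 to 13.5% in EVs, where rRNA takes 20.7 to 61.4%.

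The 3 families together took 19.0 to 24.0% of tRNA counts in plasma (median 21.6%) and 19.0 to 30.0% in EVs (median 23.4%). For comparison, the single anticodon His-GTG took a mean of 14.1% in plasma and 15.5% in EVs. The share of the 3 families was higher in the EV library in 12 of 14 mice. Counted once per copy, the shares were 16.0 to 20.4% in plasma and 16.2 to 25.1% in EVs. Of all counts, in contrast, the 3 families took a smaller part in EVs in 13 of 14 mice, with a median ratio of EV to plasma of 0.528, while tRNA as a whole had a median ratio of 0.504. With identical tRNA copies counted once, the median ratio of tRNA as a whole was 0.337, which is not on the scale of the 0.528. Counted in that way, the share of tRNA counts taken by the 3 families had a median ratio of EV to plasma of 1.04.

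Gly-GCC was the most frequent of the 7 anticodons. It took 7.84 to 12.0% of tRNA counts in plasma (median 8.70%) and 8.00 to 14.4% in EVs (median 9.10%), which gave it place 4 of 51 anticodons in plasma and place 3 in EVs by the mean, and place 2 in both fractions when copies were counted once. Glu-CTC took 4.05 to 5.92% in plasma and 3.70 to 6.65% in EVs, and Asp-GTC took 2.29 to 6.70% and 3.24 to 8.30%. Glu-TTC took 1.67 to 3.79% in plasma and 1.47 to 3.26% in EVs, and Gly-CCC with 0.495 to 1.30% and 0.548 to 1.26%. Gly-ACC and Gly-TCC were the least frequent, with 0.165 to 0.399% and 0.0777 to 0.309% in plasma. In plasma the ranges of Glu-CTC and Asp-GTC overlapped, as did those of Asp-GTC and Glu-TTC and of Gly-ACC and Gly-TCC, so their order is not fixed by these libraries. In replicate 3 at 2 months Glu-TTC (3.79%) lay above Asp-GTC (2.29%). Counting error was small beside these ranges: in the shallowest library, plasma replicate 1 at 6 months, the 144 counts of Gly-TCC with copies counted once are 0.0888% of tRNA counts, with an exact 95% binomial interval of 0.0749 to 0.105% that covers counting error only.

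The order of the anticodons depended on how copies were counted. With each identical copy counted once, Glu-TTC came before Glu-CTC, with means of 2.78% and 1.95% of tRNA counts in plasma and 2.47% and 1.96% in EVs. Glu-CTC has 9 identical rows in its group Glu-CTC-1, which held most of its counts. Gly-ACC, with its single gene, moved from 0.258% to 0.874% of tRNA counts in plasma, and Gly-TCC, with 7 identical rows, from 0.169% to 0.0820%.

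Of the 7 anticodons, Gly-TCC differed most between the fractions in its share of the tRNA pool. Plasma libraries gave it 0.0777 to 0.309% of tRNA counts (median 0.159%) and EV libraries 0.161 to 0.794% (median 0.344%). The ranges overlapped, but the EV library was higher in 14 of 14 mice, from 1.11 times in replicate 2 at 12 months to 3.55 times in replicate 1 at 8 months. The mean log2 ratio of EV to plasma was 1.09 ± 0.52 (SD, n = 14), or 2.13-fold, with an adjusted p of 0.000854 (exact two-sided sign-change test within mice, Benjamini-Hochberg over 49 anticodons), which comes from the smallest p that this test can give. Shares sum to the whole of the tRNA counts of a library, so a larger share of 1 anticodon lowers those of others.

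Gly-ACC and Asp-GTC also took larger shares in EVs. Gly-ACC ranged from 0.165 to 0.399% in plasma (median 0.254%) and from 0.168 to 0.715% in EVs (median 0.280%), and 13 of 14 mice had the higher value in EVs, with a log2 ratio of 0.42 ± 0.30 (SD, n = 14). Asp-GTC had a median of 3.97% in plasma and 5.99% in EVs, and the EV share was the higher in 12 of 14 mice, with a log2 ratio of 0.55 and an adjusted p of 0.00299 in the exact test. The 2 mice in which Asp-GTC was higher in plasma were replicate 1 at 6 months (6.70% in plasma, 5.68% in EVs) and replicate 2 at 12 months (3.85% in plasma, 3.24% in EVs). For Gly-ACC the adjusted p was 0.0012 in the exact test.

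Glu-TTC went the other way. Its median was 2.11% in plasma and 1.78% in EVs, the EV library was higher in 4 of 14 mice only, and the log2 ratio was -0.21 with an adjusted p of 0.00538 (exact sign-change test). Glu-CTC, the other glutamate anticodon, differed little, with a log2 ratio of -0.03 and a higher share in EVs in 5 of 14 mice (adjusted p = 0.597, exact test). Gly-GCC was slightly larger in EVs, by 0.08 on the log2 scale and in 11 of 14 mice, with an adjusted p of 0.0445 in the exact test. That call was lost when any 1 of 10 mice was left out (adjusted p = 0.0552 to 0.0851, exact test), and remained only without replicate 3 at 2 months, replicate 2 at 6 months, replicate 1 at 8 months or replicate 2 at 18 months. Gly-CCC had a log2 ratio of 0.10, higher in 10 of 14 mice, with an adjusted p of 0.172 in the exact test.

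Of the 7 anticodons, 4 were thus called higher and 1 lower in EVs. Among all 49 anticodons tested the test called 69.4%, with 49% higher and 20.4% lower in EVs, so a call was the usual outcome in the tRNA class. The median log2 ratio was 0.10 over the 7 anticodons and 0.18 over all 49. Without the pairing by mouse, in a permutation of fractions over libraries, 2 of the 7 were called higher (Gly-TCC and Asp-GTC), none was called lower, and 17 of 49 were called in all. Gly-GCC was not called when copies were counted once (log2 ratio 0.05, adjusted p = 0.169 in the exact test) and Gly-CCC then was (0.15, adjusted p = 0.0389 in the exact test).

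**Figure D2:**
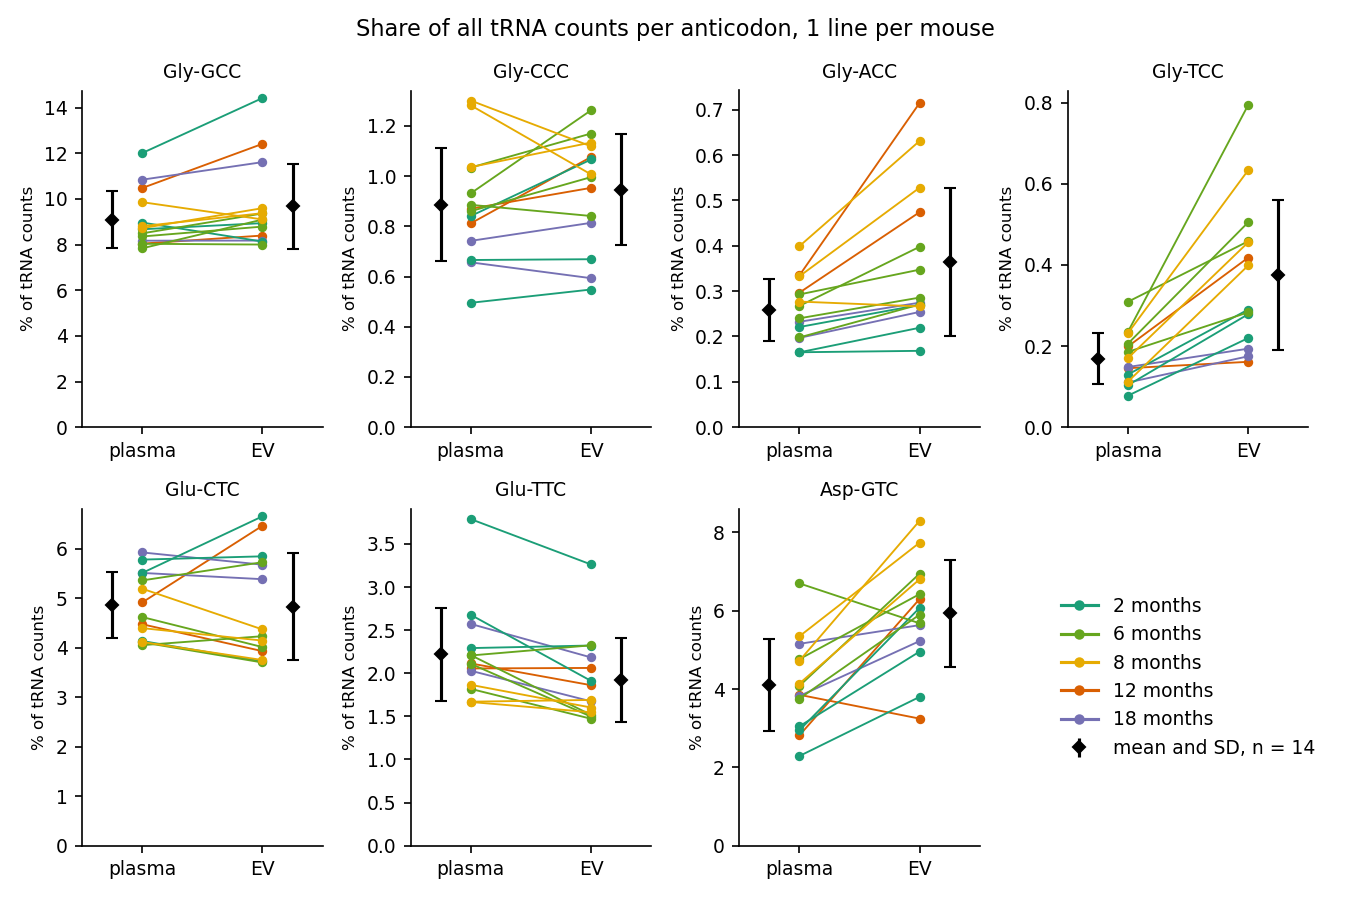
Percent of all tRNA counts (y axis, from 0) for each of the 7 anticodons in the plasma and the EV library of each mouse, joined by a line coloured by age. Black diamonds and bars are the mean and SD of 14 mice. Gly-TCC is higher in the EV library of all 14 mice, and Glu-TTC is higher in that of 4.

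Within an anticodon the sequence groups did not all go the same way. This was tested after the values were seen, with copies counted once, over the 206 tRNA count profiles that had at least 10 counts in every library. Of the 20 groups, 12 took a larger share of tRNA counts in EVs and 3 a smaller one, where 49% of all profiles were called higher and 15% lower. Groups named beyond the most frequent ones of each amino acid were chosen after their values were seen.

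The glutamate groups show it most clearly. Glu-TTC-1 had a median of 0.923% of tRNA counts in plasma and 0.694% in EVs and was lower in the EV library of all 14 mice, with a log2 ratio of -0.35 ± 0.23 (SD, n = 14). Glu-TTC-2, whose counts followed those of Glu-TTC-1 (ratio of counts 0.974 to 1.19 in every library), was also lower in 14 of 14 mice. Glu-TTC-3 had a median of 0.848% in plasma and 0.904% in EVs and 11 of 14 mice had the higher value in EVs, with a log2 ratio of 0.18 and an adjusted p of 0.0336 (exact sign-change test). The ratio of Glu-TTC-1 to Glu-TTC-3 was lower in the EV library of all 14 mice, by 0.53 ± 0.26 on the log2 scale (SD, n = 14). In the same way Glu-CTC-2 took a larger share in EVs (log2 ratio 0.41, adjusted p = 0.00268, exact test) and Glu-CTC-5 a smaller one (-0.28, adjusted p = 0.00991, exact test), while Glu-CTC-1, which held most reads of the anticodon, had -0.04 and was not called.

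Gly-CCC was divided in a like way. Gly-CCC-1 had a log2 ratio of -0.13, was higher in EVs in 4 of 14 mice and was not called (adjusted p = 0.151, exact test). Gly-CCC-2, Gly-CCC-3 and Gly-CCC-4 had log2 ratios of 0.62, 0.55 and 0.60 and were higher in EVs in 13, 13 and 14 of 14 mice. Counts of these 3 groups stayed within 0.897 to 1.14 times of one another in every library, and they are not counted here as 3 separate findings. The ratio of Gly-CCC-1 to Gly-CCC-4 was lower in EVs by 0.73 ± 0.52 on the log2 scale (SD, n = 14), in 12 of 14 mice, with an adjusted p of 0.00248 (exact test over 573 pairs of groups of 1 anticodon). The 4 Gly-GCC groups lay close together, with log2 ratios of 0.15, 0.07, -0.02 and 0.01. Of these Gly-GCC-1 was called, and its ratio to each of the other 3 groups also differed between the fractions.

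All 4 aspartate groups took larger shares in EVs, with log2 ratios of 0.55, 0.33, 0.85 and 0.48 for Asp-GTC-1 to Asp-GTC-4. Asp-GTC-1, with 13 identical gene copies, took 1.01 ± 0.28% of tRNA counts in plasma and 1.46 ± 0.32% in EVs (SD, n = 14). Asp-GTC-3 is the least frequent of the 20 groups, with a median of 0.00687% in plasma and 0.0117% in EVs, and its ratios spread most, from 0.541 to 4.62 times. Over the anticodons with more than 1 group, 17 of 24 pairs of groups differed between the fractions in their ratio, beside 55% of all such tRNA pairs. Gly-ACC and Gly-TCC have 1 group each and give no pair. These pairs are not separate findings, as groups with closely similar counts, such as Gly-CCC-2 to Gly-CCC-4, recur in them. A called difference could be as small as -0.04 on the log2 scale, for Gly-CCC-3 to Gly-CCC-4.

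**Figure D3:**
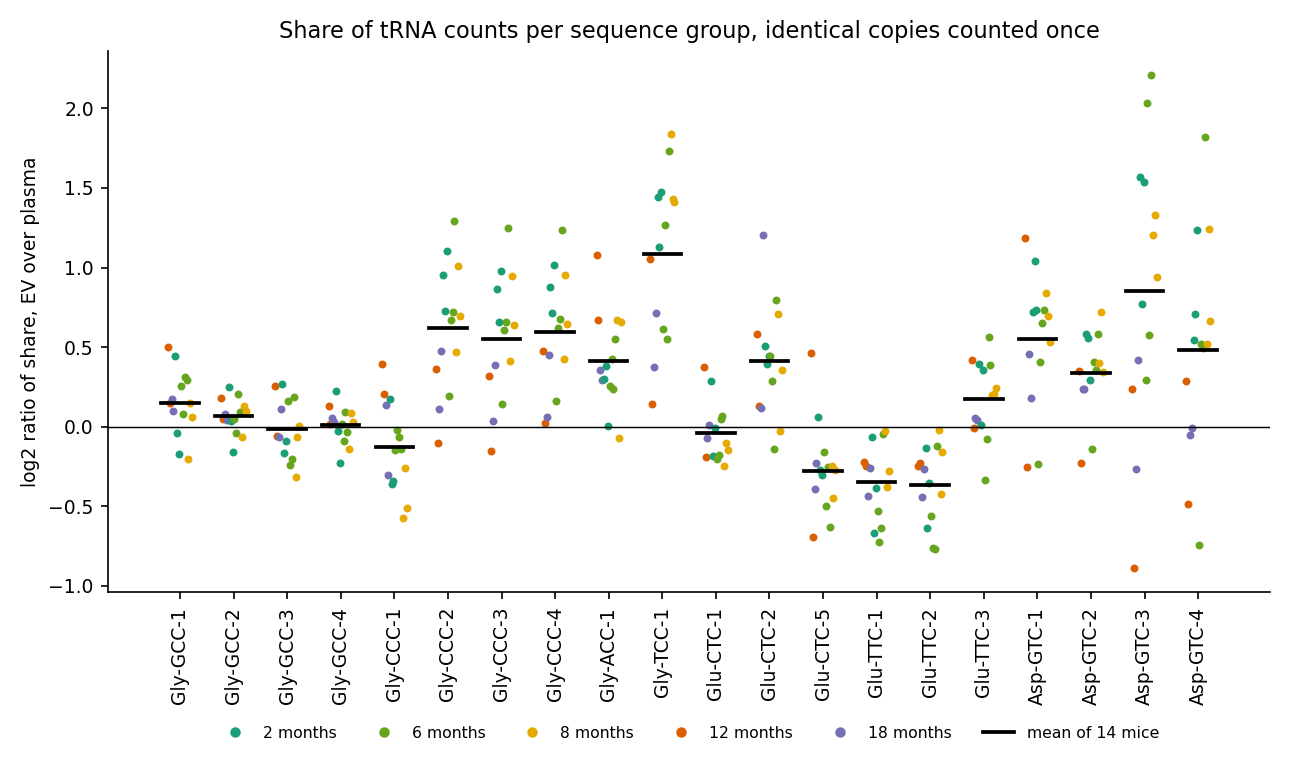
Log2 ratio of the share of tRNA counts in the EV library to that in the plasma library of the same mouse (y axis) for the 20 sequence groups, with copies counted once. Points are 14 mice coloured by age and black bars their mean. Glu-TTC-1 and Glu-TTC-2 lie below 0 in every mouse and Gly-TCC-1 and Gly-CCC-4 above 0.

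Whether the fragments differ in level between EVs and plasma, beside all other RNAs, depends on what the libraries are scaled to. In RPM, Gly-GCC had 32771 to 189396 in plasma (median 88318) and 18680 to 127921 in EVs (median 40124), and was lower in the EV library in 13 of 14 mice. Glu-CTC had medians of 51131 and 21643 RPM and was lower in EVs in 13 of 14 mice, and Glu-TTC had 23379 and 8885 RPM and was lower in all 14. Asp-GTC had medians of 39477 and 27937 RPM, and Gly-ACC of 2756 and 1612 RPM, each lower in EVs in 11 of 14 mice. Gly-CCC had medians of 8983 and 5285 RPM, lower in 13 of 14. Gly-TCC was the exception, with 835 to 3025 RPM in plasma (median 1469) and 923 to 3464 RPM in EVs (median 1856), and was higher in EVs in 9 of 14 mice. The 2 fractions overlapped for every anticodon.

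Per row, the 2 groups of each amino acid with the highest mean RPM over the 28 libraries were Gly-GCC-2 with 7683 per row, Gly-GCC-4 with 7098, Glu-CTC-1 with 5031, Asp-GTC-1 with 2894, Glu-TTC-1 with 2631 and Asp-GTC-2 with 1719. Gly-GCC-2 had 2939 to 17339 RPM in plasma and 1696 to 11642 RPM in EVs. Glu-CTC-1 had 1864 to 13901 RPM in plasma and 888 to 7292 RPM in EVs. Asp-GTC-1 had 1135 to 8628 RPM in plasma and 1092 to 5092 RPM in EVs. In each of these 3 groups the lowest and the highest value were higher in plasma.

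Fitted on the counts of all RNAs with edgeR, with TMM scaling over all RNAs tested and age as a covariate, 1 of the 7 anticodons was called. This fit did not pair the libraries of a mouse. Gly-TCC was 1.57-fold higher in EVs (log2 fold change 0.65, SE 0.21, adjusted p = 0.0328). The other 6 lay between -0.56 for Glu-TTC and 0.09 for Asp-GTC, with SEs of 0.32 to 0.45. Of all 21967 RNAs tested 17.3% were called, 9.99% higher and 7.3% lower in EVs, and of the 51 tRNA anticodons 5.88% were called higher. The median log2 fold change was -0.29 over the 7 anticodons, -0.16 over all tRNA anticodons and -0.02 over all RNAs tested. The call of Gly-TCC was lost without replicate 2 or 3 at 2 months, replicate 1 at 6 months or replicate 3 at 8 months (adjusted p = 0.0533 to 0.0644, edgeR), without both mice of uncertain pairing (0.107), and with no filter on low values (0.117). With mice as a block, which uses the pairing, the SEs of the 6 anticodons other than Gly-TCC were 0.17 to 0.19. Glu-TTC was then called as well, lower in EVs (log2 fold change -0.63, SE 0.17, adjusted p = 0.00965, edgeR), and Gly-TCC stayed called.

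The calls depended on the scaling. With DESeq2 size factors in edgeR Gly-TCC was again the 1 anticodon called (log2 fold change 0.66, adjusted p = 0.0287). With TMM over microRNAs alone, which moved the median of all RNAs by -0.64, all anticodons but Gly-TCC were called lower in EVs, 6 of 7, with log2 fold changes from -1.39 for Glu-TTC to -0.61 for Asp-GTC. With the scaling of the deposited RPM, which moved that median by -0.43, Glu-TTC (-1.03) and Gly-CCC (-0.78) were called lower and Gly-TCC had 0.17. Under TMM over tRNA alone, which moved it by 0.26, Gly-TCC was the 1 anticodon called, at 0.91. The median of the 7 anticodons lay below the median of all RNAs under each of these scalings, at -1.06 against -0.65, -0.78 against -0.45 and -0.14 against 0.24. Calls over all RNAs were 2194 higher and 1603 lower in EVs under the first scaling, 759 and 5524 under microRNAs, 1005 and 4194 under RPM, and 1775 and 469 under tRNA. The share of rRNA was higher in the EV libraries of all 14 mice, and its part in these levels was not tested.

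**Figure D4:**
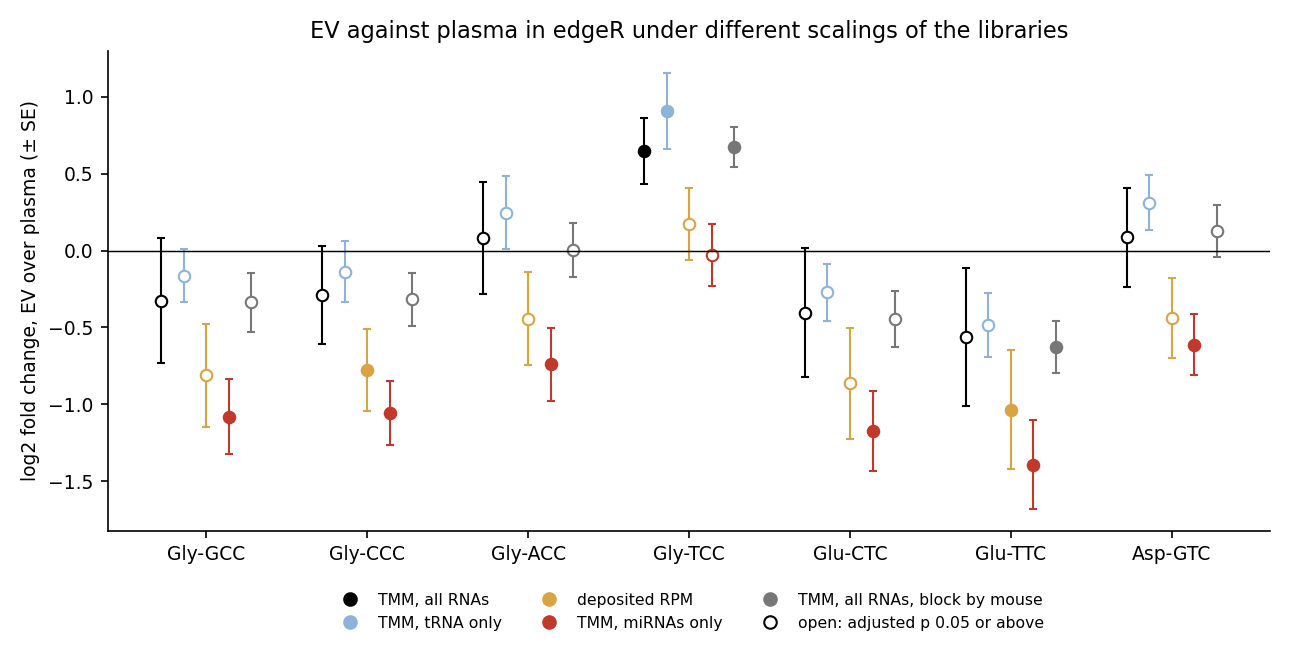
Log2 fold change of EV over plasma (y axis, points with SE) from edgeR for the 7 anticodons, with libraries scaled by TMM over all RNAs, over tRNA alone, by the deposited RPM or by TMM over microRNAs alone, and with mice as a block. Filled points have an adjusted p under 0.05. Gly-TCC is the highest under every scaling, and with TMM over microRNAs the other 6 are filled and below 0.

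In the fit of single rows, 7 of the 62 rows were called higher in EVs and none lower. These are the 7 identical Gly-TCC rows, which hold 1 count profile, so they are 1 of 20 groups (log2 fold change 0.65, SE 0.20, adjusted p = 0.0226, edgeR). Over all 22323 rows tested, 17.1% were called, 10% higher and 7.08% lower in EVs, and of tRNA rows 5.65% were called higher. The 20 groups ranged from -0.68 for Glu-TTC-1 to 0.65 for Gly-TCC-1, 9 of them above 0. With mice as a block 4 groups were called lower besides, and the 1 group stayed higher, where 1682 of all 22323 rows were called lower and 2468 higher.

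With age no level of the 7 anticodons passed the test. The 3 families summed to 170912, 338594 and 378800 RPM in plasma at 2 months, to 79629 to 226470 RPM at 6 months and 106541 to 206123 RPM at 8 months. At 12 months they summed to 284112 and 411747 RPM, and at 18 months to 388043 and 512519 RPM. In EVs the sums were 87181 to 243154 RPM at 2 months, 49991 to 116958 RPM at 6 months and 52864 to 66962 RPM at 8 months. The 2 EV libraries at 12 months had 232867 and 289742 RPM, and those at 18 months 241780 and 276965 RPM. In both fractions the lowest values thus lay at 6 and 8 months and the libraries of 12 and 18 months all lay above them. tRNA as a whole took 43.8 to 65.4% of plasma counts at 6 and 8 months and 72.1 to 78.8% at 12 and 18 months. In EVs these ages overlapped, with 11.3 to 41.9% at 6 and 8 months and 40.0 to 51.4% at 12 and 18 months. Cell marker sums also varied with age in EVs, with overlap between these ages. Those of platelets and white cells summed to 334 to 1113 RPM at 6 and 8 months and 900 to 1701 RPM at 12 and 18 months, and those of red cells to 570 to 1308 RPM and 867 to 4669 RPM. Muscle markers summed to 0.489 to 7.59 RPM at 6 and 8 months and 4.55 to 8.08 RPM at 12 and 18 months. Liver markers summed to 19.2 to 243 RPM and 126 to 179 RPM. In every list the highest value at 6 and 8 months was that of replicate 4 at 6 months. At 2 months the EV sums were 466 to 867 RPM for platelets and white cells and 1694 to 3847 RPM for red cells. Those of muscle were 0.996 to 4.35 RPM and those of liver 40.1 to 83.9 RPM. In plasma the sums at 6 and 8 months overlapped those at 12 and 18 months in every list. Platelet and white cell markers summed to 271 to 1074 and 431 to 981 RPM there, and red cell markers to 777 to 1776 and 1224 to 3077 RPM. Plasma sums of muscle markers were 0.757 to 8.01 and 1.99 to 5.79 RPM, and those of liver 14.6 to 135 and 35.2 to 177 RPM. The part of these markers in the levels of the fragments was not tested.

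In edgeR, all 7 anticodons had slopes above 0 per month in both fractions and none was called. In plasma the slopes of log2 counts ran from 0.02 (Glu-TTC, SE 0.05) to 0.08 (Asp-GTC, SE 0.04), with a lowest adjusted p of 0.701. In EVs they ran from 0.03 (Gly-TCC) to 0.13 (Gly-ACC, SE 0.05, unadjusted p = 0.0272, adjusted p = 0.858, edgeR). Of all RNAs tested edgeR called 0.0141% in plasma and 0% in EVs, with 1492 of 21276 and 961 of 18214 at an unadjusted p under 0.05. DESeq2 called 35 and 10 RNAs, 0 of them members. The median slope of the 7 anticodons was 0.05 in plasma and 0.07 in EVs, against 0.07 and 0.08 for all tRNA anticodons and 0.0059 and -0.0033 for all RNAs, and with TMM over tRNA alone it turned to -0.02 and -0.01.

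In the fits of single rows 0.0139% of rows were called in plasma and 0% in EVs, and 0 of the 62 rows. Slopes in EVs minus those in plasma ran from -0.02 (Gly-TCC, SE 0.04) to 0.07 (Gly-ACC, SE 0.07), so that differences of the size of the slopes themselves lie within the error. That error comes from a fit that did not pair the libraries of a mouse. The interaction of age and fraction called 0% of 21967 RNAs in edgeR, with 894 at an unadjusted p under 0.05 and 0 of the 7 anticodons among them, and DESeq2 called 2 RNAs, neither a member. With 2 mice each at 12 and 18 months, these trends rest on few old animals.

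As shares of tRNA counts, the anticodons had no monotonic trend past the test, and Gly-ACC had its highest mean shares at 8 and 12 months. In plasma its share was 0.165, 0.165 and 0.221% at 2 months, 0.198 to 0.293% at 6 months, 0.277, 0.333 and 0.399% at 8 months, and 0.297 and 0.335% at 12 months. The 2 mice of 18 months had 0.197 and 0.232%, back in the range of 2 to 6 months. In EVs the mean share was 0.219% at 2 months, 0.325% at 6 and 0.475% at 8 months, reached 0.594% at 12 months and was 0.264% at 18 months. In plasma each age up to 12 months overlapped the next one, in EVs replicate 2 at 8 months (0.266%) lay below replicate 1 at 2 months (0.270%), and in both fractions the mice of 18 months lay below those of 12 months.

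Over all 14 mice Spearman's rho of the Gly-ACC share with age was 0.45 in plasma, with a permutation p of 0.107 and an adjusted p of 0.262 over 49 anticodons, and Pearson's r was 0.21 (permutation p = 0.464). The EV shares had a rho of 0.42, with a permutation p of 0.135 and an adjusted p of 0.414, and an r of 0.25 (permutation p = 0.395). Both 18-month mice are farthest in age from the median mouse. When they were left out, rho in plasma was 0.86, with a permutation p of 0.00073 and an adjusted p of 0.0358, and r was 0.74 (permutation p = 0.00577). For EVs rho was then 0.78, with a permutation p of 0.00412 and an adjusted p of 0.100, and r was 0.78 (permutation p = 0.00282). The relation thus depends on those mice. With the 18-month mice left out, Gly-ACC was the 1 anticodon called of all 49 in plasma, and 1 of 49 was called in EVs, none of the 7. Both fractions of a mouse share its blood, so they are not separate evidence.

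Glu-TTC had the lowest rho of the 7 anticodons in plasma, at -0.44, with a permutation p of 0.115 and an adjusted p of 0.267. The rho of its EV share was -0.15 (permutation p = 0.616). In plasma it took 2.29 to 3.79% at 2 months, 1.82 to 2.21% at 6 months and 1.67 to 1.87% at 8 months. The older mice had 2.06 and 2.11% at 12 months and 2.03 and 2.57% at 18 months. Pearson's r was -0.30 for plasma (permutation p = 0.296) and -0.25 for EVs (permutation p = 0.396), and without the mice of 18 months rho was -0.70 in plasma (permutation p = 0.0136, adjusted p = 0.155). The highest value, 3.79%, was that of replicate 3 at 2 months, 1 of the mice of uncertain pairing. For the other 5 anticodons rho lay between 0.02 and 0.32 in plasma, and from -0.26 to 0.16 for EV shares.

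Of the 49 anticodons 0% were called with age in either fraction by Spearman's rho, with 13 in plasma and 8 in EVs at an unadjusted permutation p under 0.05, and 0 of the 7 among these. Pearson's r called 2 and 1, 0 of them members. Over the 206 count profiles 0% were called in plasma and 0.485% in EVs, 0 of them members. Gly-TCC and Asp-GTC, which of the 7 differed most between the fractions, had their highest mean EV shares at 6 and 8 months. Gly-TCC had mean EV shares of 0.263, 0.510, 0.496, 0.290 and 0.184% at 2, 6, 8, 12 and 18 months, and mean plasma shares of 0.104, 0.234, 0.172, 0.172 and 0.129%. At every age the mean was higher in EVs.

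**Figure D5:**
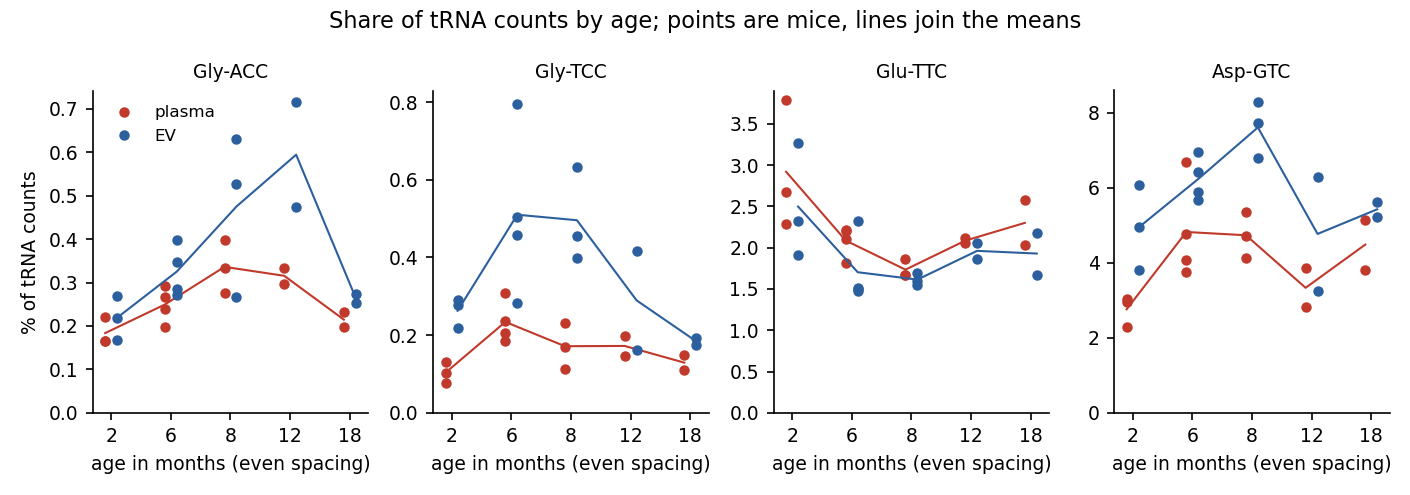
Percent of tRNA counts (y axis, from 0) by age in months, with ages evenly spaced, for Gly-ACC, Gly-TCC, Glu-TTC and Asp-GTC in plasma and in EVs. Points are mice and lines join the means of each age. Gly-ACC in EVs goes from a mean of 0.219% at 2 months to 0.594% at 12 months and is 0.264% at 18 months.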

How the data were processed

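The 28 small RNA libraries of 14 mice were assigned to mouse, fraction and age from the labels. One table deposited by the authors holds estimated counts without normalization. The other, also deposited by the authors, holds a signal called RPM, which is the count scaled by a single divisor per library that differs from the library total. The submitters' processing notes name R 4.0.4 and the build mm10. The study's methods name miRMaster and Bowtie for its tissue libraries and take the EV data from an earlier study. Aligner and annotation of the libraries used here: not given in the sources used here. All tRNA counts were whole, and 46 other rows held values that were not.

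Rows were summed by anticodon, the third field of the name. The members and the lists were chosen with earlier results of these data known. Counts were rounded and tested with edgeR 4.0.16 (glmQLFit and glmQLFTest, limma 3.58.1, R 4.3.3) over all RNAs with at least 1 RPM in at least 2 libraries of a fraction, with TMM, Benjamini-Hochberg adjustment and a threshold of 0.05. DESeq2 1.42.0 was the other tool. Shares of tRNA counts were tested over anticodons with at least 10 counts in every library, exactly over all 16384 sign changes within mice, or by 100000 permutations for age (Python 3.11.15, numpy 2.4.6, pandas 2.3.3, scipy 1.17.1, matplotlib 3.10.9). Named were all 7 anticodons, the 2 sequence groups per amino acid with the highest mean RPM, and per amino acid the called row with the largest difference between the fractions. Counting identical copies once and testing sequence groups were chosen after seeing the data. Other alternatives were other scalings, filters, codings of age, pairings and leaving out each mouse. Depth ranged from 928651 counts in the shallowest library to 52753800 in the deepest.

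Libraries were paired in the sign-change tests of shares and in the edgeR fits with mice as a block, because each mouse gave 1 of each fraction. The other edgeR fits did not use the pairing. Deviations from the age means over 49 anticodons correlated within a mouse at -0.02 to 0.71, and 2 mice, replicates 2 and 3 at 6 months, were closer to another mouse of their age. Where an age has 2 mice the correlations mirror each other, so these 2 mice give 1 check by its sign. It was 0.43 within a mouse and -0.43 between mice at 12 months, and 0.71 and -0.71 at 18 months. The pairing itself rests on the labels. Replicates differed by more than counting noise (lowest chi-square per degree of freedom 21.8). The edgeR fits, other than those of single rows with age, and both kinds of share test were tested on simulated data with known changes.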

Additional observations from a re-analysis of the deposited data

Results flagged for a closer look

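Within the 4 libraries of each fraction at 6 months, 68 sets of 4 values were examined for a library far from the other 3, and 4 were found, about what chance gives at 1 in 20. In EV replicate 4 Glu-TTC took 2.32% of tRNA counts, against 1.47 to 1.52% in the other 3, and Glu-CTC-2, a sequence group of the other glutamate anticodon, with copies counted once, took 0.177% against 0.0880 to 0.0995%. EV replicate 2 had 18680 RPM of Gly-GCC, against 37700 to 40843 RPM in the others. In plasma replicate 3 the group Glu-TTC-3, with copies counted once, took 0.651% of tRNA counts, against 0.82 to 0.85%. In the share test and in edgeR, the call of Gly-GCC shares was lost without the mouse of replicate 3 or 4, as without 8 other mice, and no other called anticodon was lost without the mouse of replicate 2, 3 or 4 of that age.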

How the results depend on the processing

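Between the fractions, the count of called anticodons (1 in edgeR) was 6 with TMM over microRNAs, 2 with the RPM scaling, 0 with no filter on low values, 0 without the mice of uncertain pairing, 2 with the replicate block by mouse and 0 to 1 when each mouse was left out. Single rows gave 18, 4, 0, 0 and 5 called groups in place of 1 under these settings, where 6695, 5359, 4273, 2934 and 4150 of all rows were called (3815 in the first fit), and 1 in each fit without 1 mouse. For shares of tRNA counts the 5 called anticodons became 2 without the pairing, 15 of 20 when sequence groups were tested, and 4 to 5 without 1 mouse. With age the 0 called anticodons became 1 in plasma shares without the mice of 18 months, and stayed 0 in every other fit with age, as in the interaction.

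Signs of log2 fold changes turned for Asp-GTC (-0.61 with TMM over microRNAs, -0.44 with RPM scaling, -0.037 with 10 counts in every library, -0.010 without uncertain pairs), for Gly-ACC (-0.74, -0.44 and -0.034 under the first 3, and -0.066 to 0.18 over the fits without 1 mouse) and for Gly-TCC (-0.029 with TMM over microRNAs, as sum and as single row). Slopes per month turned with TMM over tRNA alone for Gly-ACC in plasma (-0.0055) and for Glu-TTC in plasma (-0.048) and EVs (-0.023). In plasma the Glu-TTC slope also turned without the mice of 18 months (-0.065), with log2 of age (-0.086) and over the fits without 1 mouse (-0.024 to 0.068). The rank correlation of Glu-TTC with age turned in RPM (0.088 in plasma, 0.15 in EVs) and without 1 mouse in EVs (-0.24 to 0.053). The cause was not tested. The replicate block changed no other call.

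Precision is limited by 2 mice at each of the oldest ages and by groups with closely similar counts, whose sharing of reads was not tested.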
